A study of Mus musculus with 8 samples.

Results

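Wild type bone marrow progenitors sorted into the plate2 libraries were compared here with wild type haematopoietic stem cells (HSC). Wells were brought to the same number of transcripts and summed per library. The members are the 191 wells of 4 wild type libraries that held at least 1000 transcripts besides spike-ins, out of 384 wells that belong to those libraries and 417 such wells in the whole series. They are 50 wells of HSC library 1, 46 of HSC library 2, 54 of plate2 library 13 and 41 of plate2 library 14. Each library file lists 192 barcodes, of which 96, in whichever of the first or second block of 96 holds more transcripts, are its own. Every member was thinned at random to 1000 transcripts, because the HSC wells were shallower.

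The series profiled single mouse progenitors with CEL-Seq2, which counts molecular identifiers per gene and well, in wild type mice and in mice with 1 functional copy of Mof (Kat8, a histone acetyltransferase). Its design text names 768 cells over 8 sort gates, and the labels name 8 libraries, 2 in each of 4 groups. HSC were gated as LSK cells without CD34, Flt3 and CD48 and with CD150. The 7 other gates span megakaryocyte-erythroid, erythroid and granulocyte-monocyte progenitors, and no label says which of them a plate2 well came from. Age, sex and strain were not given in the sources used here, and nothing in the labels says that the 2 libraries of a group came from separate mice. The p-values therefore measure library-to-library spread alone, part of which may come from the technique. HSC and plate2 wells are also in separate libraries that differ in depth, so that cell type and library set cannot be told apart in any difference below.

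As background, HSC sit at the top of blood formation, divide rarely and keep a programme of stem cell transcription factors. Their progeny become restricted progenitors that divide often. Erythroid progenitors switch on carbonic anhydrases and later haem and globin genes, and granulocyte-monocyte progenitors make the proteases of neutrophil primary granules.

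Plate2 wells were far deeper than HSC wells before thinning. Median transcripts per member well were 1601 and 1567 in the HSC libraries and 9864 and 9018 in the plate2 libraries, a difference of 7857 (exact two-sided permutation test of library medians, p = 0.333, the smallest that 2 against 2 libraries allow). Spike-in medians ran the other way, at 136 and 130 in HSC wells and 15 and 18 in plate2 wells. Over all 96 own wells of a library, with no minimum, the medians were 1046 and 926 in HSC and 2415 and 671 in plate2, so that the groups overlapped. After thinning, a median of 589.5 and 592.5 genes was detected per HSC well and 586.5 and 597 per plate2 well (difference 0.75, p = 1 by the same exact test). Thinning used 50.3% and 44.6% of the HSC members' transcripts but only 7.49% and 9.76% of the plate2 members'. Between the libraries of a group, counts of genes differed more in HSC (chi-square per degree of freedom 3.77 over 705 genes) than in plate2 (1.74 over 475 genes), where counting error alone gives 1.

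The labelled cell types were first checked against marker sets. Of the 9 stem markers (among them Procr, Mecom, Hlf, Slamf1, Ly6a, Meis1, Ctla2a and Esam), at least 5 transcripts were found in 20 of 50 and 21 of 46 HSC wells, against 1 of 54 and 1 of 41 plate2 wells. Summed, these markers reached 3820 and 4543 CPM (transcripts scaled to a common library total, where 1 transcript of a 1000-transcript well is 1000 CPM within it) in HSC and 630 and 829 in plate2. Slamf1, the gene of the gating antigen CD150, was at 0 in HSC library 1 and at 4 transcripts in library 2, and Procr had 6 transcripts over all HSC members. Erythroid progenitor markers (Gata1, Klf1, Car1, Car2, Epor, Blvrb, Ermap, Tfrc and Aqp1) reached 5 transcripts in 3 and 1 HSC wells and in 11 and 8 plate2 wells. The 6 neutrophil progenitor markers did so in 5 wells, all of plate2 library 13. Megakaryocyte markers reached 5 transcripts in no member well, with Gp9, Ppbp and Gp6 at 0 in every library. B cell, mast cell and eosinophil markers were at or near 0 in all 4 libraries, with at most 3 transcripts of a set per library. For T or NK cells 1 of 5 markers was used (Cd3d, at 0), and for endothelial or stromal cells 2 of 5 (Kdr and Lepr, with 1 transcript in all), so these sets say little.

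**Figure D1:**
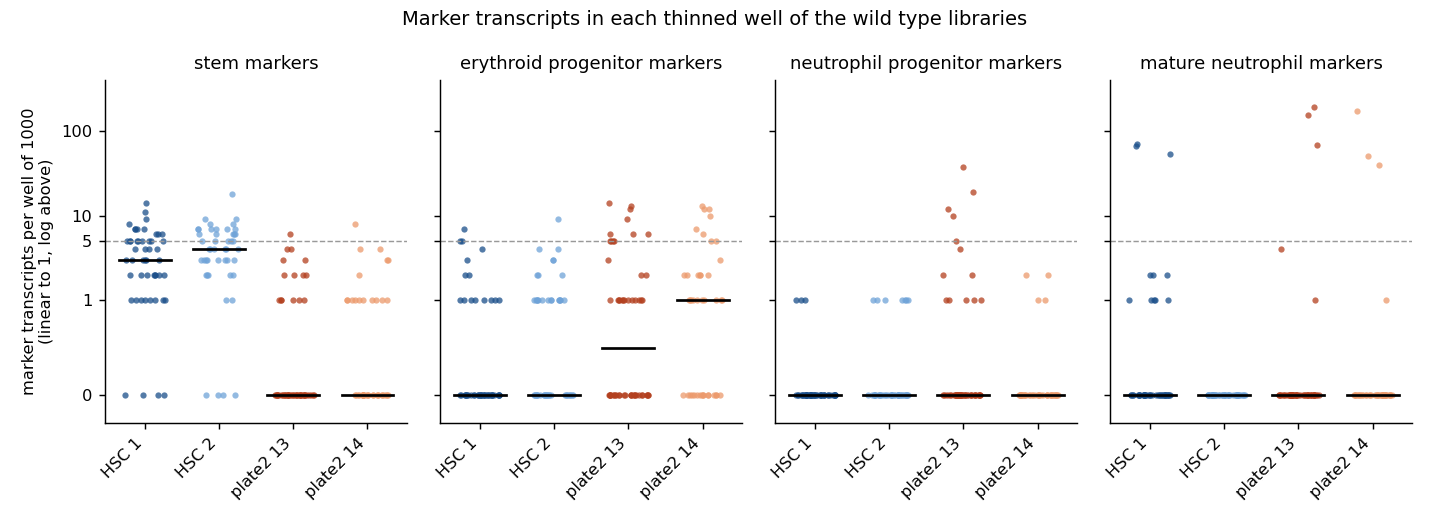
Transcripts of 4 marker sets in each thinned well (points) of the wild type libraries, with the library median as a bar and the level of 5 transcripts dashed. The vertical axis is linear to 1 and logarithmic above. Stem markers have a median of 3 and 4 in the HSC libraries and 0 in both plate2 libraries, while mature neutrophil markers lie in a few wells of HSC 1 and both plate2 libraries.

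Mature neutrophil markers marked a few wells on both sides. In HSC, 3 of 96 wells held at least 5 transcripts of the set and with them 94.5% of its 200 transcripts, all in library 1, while library 2 had none. In plate2, 6 of 95 wells held 99.1% of 680 transcripts. Gene counts below were therefore also taken without the wells holding at least 10 such transcripts or 10 globin transcripts (7 and 1 wells of HSC, 5 and 4 of plate2). This gave 169 genes higher and 128 lower, of which 153 and 115 were among those called with all wells.

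Counts were summed over the thinned wells of each library and compared with edgeR (two-sided quasi-likelihood test, TMM scaling, Benjamini-Hochberg adjusted p under 0.05). Of 952 genes with enough counts to be tested, 170 (17.9%) were higher and 124 (13%) lower in plate2, 30.9% in either direction, and 401 had an unadjusted p under 0.05. The filter on low counts asked for enough counts in 2 of the 8 libraries. Car1 reached this only in plate2 libraries and Ctla2a only in HSC libraries, among others. The filter largely fixed the direction of such genes, so their calls are descriptions. The count of lower genes depended on both plate2 libraries, at 48 without library 13 and 70 without library 14. Scaling set the balance of directions. With library size alone 106 were higher and 241 lower, the share of higher calls moved from 57.8% to 30.5%, and the median of all genes shifted by -0.47 on the log2 scale. Without a change of scaling the median log2 fold change of all tested genes was -0.05. Groups of libraries did not overlap for 235 genes higher (24.7%) and 420 lower (44.1%). In bulk sums such as these, fewer cells of a type and less RNA of a gene per cell cannot be told apart.

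Stem cell surface and secreted markers were the list with the largest share of lower calls among the lists with at least 5 members tested, with 7 of 12 tested members lower and 1 higher, where 13% of all genes were lower. Their median log2 fold change was -1.98, against -0.05 for all tested genes. Ctla2a, a cysteine protease inhibitor gene on chromosome 13 (60934155 to 60936625, GRCm38), stood at 1100 and 1457 CPM in the HSC libraries and at 92.6 and 73.2 CPM in plate2. Its log2 fold change was -3.53 ± 0.51 (SE, n = 2 libraries per group, adjusted p = 5.6e-05), and it was seen in 57 of 96 HSC wells but 8 of 95 plate2 wells. Ly6a, on chromosome 15 (74994877 to 74998031), encodes Sca-1, the antigen that the LSK gate of HSC requires and that several progenitor gates exclude, so its fall is a check of the sort. It went from 360 and 457 CPM to 18.5 and 24.4 CPM, the latter being 1 transcript in each plate2 library (-3.79 ± 0.73, adjusted p = 0.000778). In both genes both plate2 libraries lay below both HSC libraries. Both genes, and Ifitm3 of the same list, passed the filter on low counts only through HSC libraries. Their direction was largely fixed by it, so the count of lower members is a description.

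Other stem cell surface genes fell as well. Tie1, a receptor tyrosine kinase of HSC and endothelium, stood at 120 and 413 CPM against 55.6 and 0 (-2.64 ± 0.94), and Ltb, which encodes lymphotoxin beta, at 280 and 239 CPM against 37 and 48.8 (-2.20 ± 0.75). Of other endothelial genes, Pecam1 had 7 transcripts in HSC and 0 in plate2 and Plvap 3 and 1, both too sparse to test, and their part in the value of Tie1 was not tested. Kit, the stem cell factor receptor on which all the gates with high cKit were sorted, was the 1 member called higher, at 180 and 261 CPM in HSC and 407 and 463 in plate2 (1.34 ± 0.50, adjusted p = 0.0483). That call was kept in only 5 of 23 alternative settings, and with library size alone the value was 0.87.

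Among stem cell transcription factors, 2 of 11 tested genes were lower and 1 higher, or 18.2% and 9.09%, against 13% and 17.9% of all genes. Their median was -0.74, but it was 0.021 at 2000 and 0.026 at 500 transcripts per well. The setting of 2000 transcripts kept only 13 and 14 HSC wells, against 49 and 39 plate2 wells, so it also changed which cells were compared. Hlf, a PAR bZIP factor of stem cells, went from 1300 and 1522 CPM to 389 and 293 CPM (-1.66 ± 0.35, adjusted p = 0.0015). It was found in 58 of 96 HSC wells and 17 of 95 plate2 wells. Mecom, which encodes the zinc finger factor EVI1, had 20 transcripts in HSC and 2 in plate2, where library 13 had none (-2.80 ± 0.95, adjusted p = 0.0306). Mecom passed the filter on low counts only through HSC libraries, so its direction was largely fixed. Its call was lost in 9 of 19 settings, and at 2000 transcripts per well its value was 1.60. Gata2, a factor of early progenitors, was called higher at 1.51 ± 0.56 (140 and 109 CPM against 185 and 390), a call kept in 9 of 21 settings. Meis1 (-1.01 ± 0.76), Hoxa9, Erg and Lmo2 did not pass.

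Interferon-induced transmembrane genes were lower in plate2. Of 4 interferon response genes tested, 3 were lower (75%, against 13% of all genes) and none higher. All 3 are Ifitm genes, which restrict virus entry and are known to be high in stem cells. Ifitm1, on the surface marker list as well, stood at 2100 and 2304 CPM in HSC and 407 and 488 CPM in plate2 (-1.94 ± 0.32, adjusted p = 0.000226). Ifitm3, also on that list, stood at 720 and 957 CPM against 148 and 122 (-2.24 ± 0.44). Both calls held in all 23 settings, whereas that of Ifitm2 (-1.53 ± 0.55) held in 9. These genes lie in one cluster and are close in sequence, so reads may be shared between them. The fourth gene tested, the GTPase gene Ifi47, had a value of -0.77 ± 0.61. Ifitm2 and Ifitm3 passed the filter on low counts only through HSC libraries, so the count is a description.

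Early erythroid genes were higher in plate2. Of 4 tested, 3 were higher and none lower, where 17.9% of all genes were higher. Car1, carbonic anhydrase 1, on chromosome 3 (14766216 to 14808368), went from 20 and 109 CPM in HSC to 611 and 585 CPM in plate2 (3.57 ± 0.65, adjusted p = 0.000463). It held in all 23 settings and was carried by 21 of 95 plate2 wells and 4 of 96 HSC wells. Aqp1, the red cell water channel, rose from 40 and 43.5 CPM to 204 and 341 CPM (2.97 ± 0.71, adjusted p = 0.00395), and carbonic anhydrase 2 (Car2) from 500 CPM in both HSC libraries to 704 and 1073 CPM (1.18 ± 0.36). With library size alone Car2 did not pass, at 0.71. Apoe, the fourth, stood at -0.10. Car1 and Aqp1 passed the filter on low counts only through plate2 libraries, so their direction was largely fixed and the count is a description.

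Of 7 erythroid transcription factors tested, 1 was higher and none lower, or 14.3% and 0%, against 17.9% and 13% of all genes. That gene was Myb, which keeps progenitors dividing, at 120 and 174 CPM against 278 and 317 (1.37 ± 0.46, adjusted p = 0.0294), a call kept in 14 of 23 settings. Gata1 and Klf1, the central erythroid factors, were too sparse to test. Gata1 had 5 thinned transcripts in HSC and 4 in plate2, and Klf1 2 and 3. Haem synthesis enzymes were too sparse as well, with none of 12 tested and Cpox at 80 and 87 CPM against 148 and 97.6.

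Globin transcripts ran against the early erythroid genes. Of the globin and late erythroid list 1 of 6 was higher (Car1, shared with the list above) and 1 lower, or 16.7% each, against 17.9% and 13% of all genes. The lower gene, Hba-a1, stood at 5880 and 696 CPM in HSC and 667 and 146 CPM in plate2 (-2.58 ± 0.70, adjusted p = 0.00945), and was found in 39 of 96 HSC wells and 4 of 95 plate2 wells. A single well of HSC library 1 held 223 of its 294 transcripts there. The call was kept in 19 of 23 settings, with a value of -2.33 without the top well of each gene, but without HSC library 1 the value was -0.19 and did not pass. Hbb-bs (2980 and 152 CPM against 611 and 122) and Hbb-bt did not pass.

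**Figure D2:**
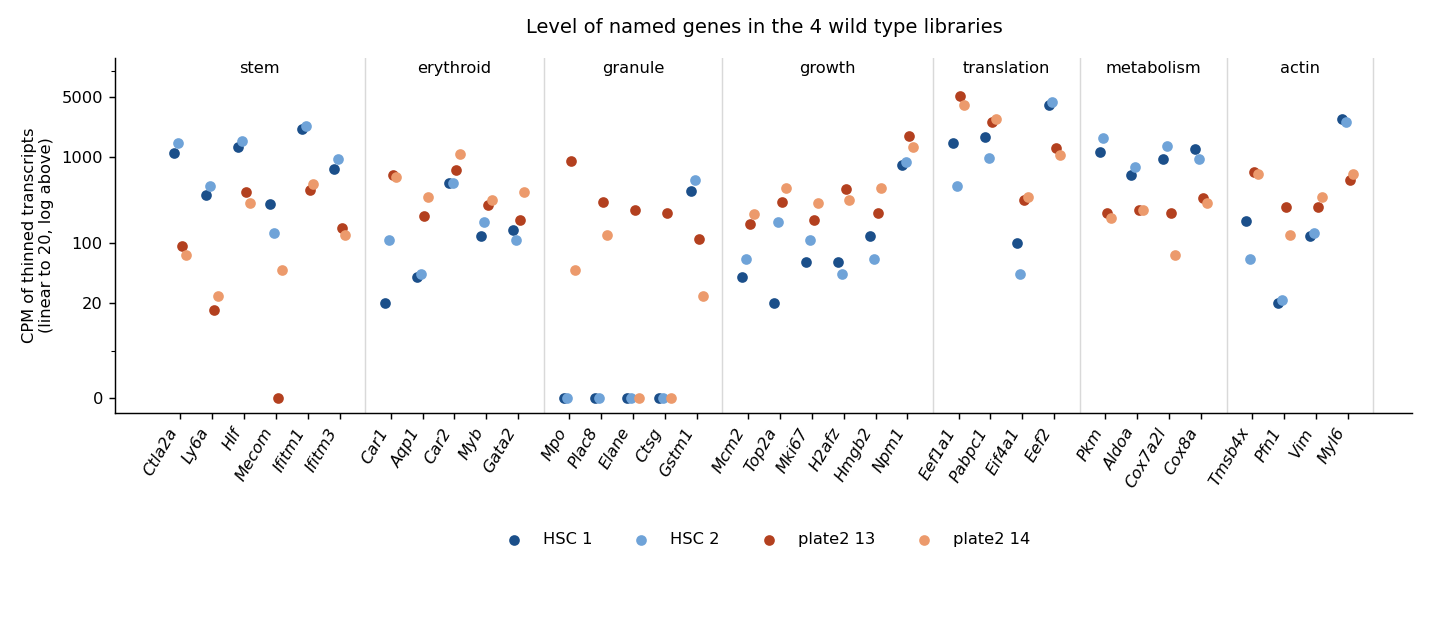
CPM of thinned transcripts for genes named in the text, 1 point per wild type library, grouped by role. The vertical axis is linear to 20 CPM and logarithmic above. Ctla2a, Ly6a, Hlf and Pkm lie lower in both plate2 libraries than in both HSC libraries, and Car1, H2afz and Eef1a1 higher, while Elane and Ctsg are above 0 in plate2 13 only.

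Of the neutrophil primary granule and precursor genes, Mpo, Plac8, Elane and Ctsg had thinned transcripts in plate2 and none in wild type HSC. The list as a whole was not rare in HSC, where it took 0.258% and 0.293% of transcripts, against 0.356% and 0.171% in plate2. Of 8 tested, these 4 were called higher (50%) and 1 lower (12.5%), against 17.9% and 13% of all genes. The 4 passed the filter on low counts only through plate2 libraries, so their direction was fixed by it and the count is a description. The median was 3.77, or 1.80 with these genes at their bound, and a fit of the 4 wild type libraries alone gave -0.54. Mpo, myeloperoxidase, on chromosome 11 (87793581 to 87804413), had 0 thinned transcripts in both HSC libraries and stood at 907 and 48.8 CPM in plate2 (adjusted p = 0.000778). With 51 transcripts against a floor of 3 over the HSC group it was at least 17.2-fold higher. Of the 51, library 13 held 49, with 20 of them in a single well. Plac8, a gene of early myeloid cells, was at least 7.07-fold higher (21 transcripts against 0, at 296 and 122 CPM), and it was called in all 22 settings that tested it.

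Library 13 held most transcripts of these 4 genes. Elane (neutrophil elastase) had 13 and Ctsg (cathepsin G) 12 thinned transcripts there and none in library 14 or in HSC, which makes them at least 4.38-fold and 4.04-fold higher over the group (adjusted p = 0.0343 each). Both calls and that of Mpo were lost without library 13. Before thinning, library 13 held 701 Mpo, 206 Elane and 206 Ctsg transcripts and library 14 held 7, 1 and 3. HSC library 1 then held 0 of each, and HSC library 2 held 1, 1 and 0. Plac8 had 1 transcript in HSC library 1 before thinning. Prtn3, proteinase 3, did not pass, at 60 and 152 CPM in HSC and 370 and 97.6 CPM in plate2. The lower member was Gstm1, a glutathione transferase that is not a granule protein, at 400 and 543 CPM against 111 and 24.4 (-2.29 ± 0.55).

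Calprotectin genes were called higher, from few wells. Of 7 mature neutrophil genes tested, 3 were higher (42.9%, against 17.9% of all genes) and none lower. S100a9 stood at 1060 and 0 CPM in HSC and 3111 and 2537 CPM in plate2 (2.76 ± 0.69, adjusted p = 0.00511), and it was found in 4 HSC and 7 plate2 wells. S100a8 (2.89 ± 0.73) and Retnlg, a resistin-like gene (3.08 ± 0.63), had the same layout, with HSC library 2 at 0. Without thinning the 3 values fell to 1.01, 0.46 and 1.09 and did not pass, and without the marked wells the genes were too sparse to test. Ngp and Lcn2, of the later granules, did not pass (-0.52 and 0.20).

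Some genes of dividing cells were higher. Of 7 tested G2 and mitosis genes 3 were higher (42.9%, against 17.9% of all genes) and none lower (median 1.35). Of 6 DNA replication genes 1 was higher and none lower (16.7%, against 17.9% of all genes). Their median of 0.86 turned to -0.32 at 2000 transcripts per well and to -0.090 with seed 2 of the thinning. Top2a, topoisomerase 2 alpha, stood at 20 and 174 CPM in HSC and 296 and 439 CPM in plate2 (2.28 ± 0.64, adjusted p = 0.0118). Mki67, the gene of the Ki-67 antigen of cycling cells, stood at 60 and 109 CPM against 185 and 293 (1.82 ± 0.65), and the condensin gene Smc4 at 160 and 109 CPM against 241 and 293 (1.32 ± 0.49). Mcm2, of the replicative helicase, had 5 transcripts in HSC and 18 in plate2 (2.18 ± 0.76), but the call was kept in only 3 of 12 settings and the value was -0.73 at 2000 transcripts. A call was kept in 16 of 23 settings for Top2a, 7 of 21 for Mki67 and 7 of 23 for Smc4. Top2a, Mki67, Smc4 and Mcm2 passed the filter on low counts only through plate2 libraries. Their direction was largely fixed by it, so the counts of called genes are descriptions. Cdk4, a G1 kinase, went the other way, from 680 and 717 CPM to 222 and 220 CPM (-1.29 ± 0.39).

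Some genes of chromatin proteins that accompany growth were higher. H2afz, the histone variant H2A.Z, stood at 60 and 43.5 CPM in HSC and 426 and 317 CPM in plate2 (3.16 ± 0.54, adjusted p = 0.000242), and was found in 4 HSC and 25 plate2 wells. It was the 1 of 4 histone variant genes that passed (25%, against 17.9% of all genes called higher). Of 4 high mobility group genes 2 were higher (50%, against 17.9% of all genes). They were Hmgb2 (120 and 65.2 CPM against 222 and 439, 2.12 ± 0.55) and Hmgb1 (520 and 435 CPM against 981 and 878, 1.33 ± 0.34). The call of H2afz was kept in 22 of 23 settings and those of Hmgb1 and Hmgb2 in 19. H2afz and Hmgb2 passed the filter on low counts only through plate2 libraries, so their direction was largely fixed by it. Hmgb1 did not pass with library size alone, and Hmgb2 not without plate2 library 14. No histone acetyltransferase or deacetylase gene passed among 6 tested, nor did the Kat8 partners tested, Msl1 (-1.24 ± 0.63) and Hcfc1 (-0.96 ± 0.55). With library size alone both were called lower, at -1.70 (adjusted p = 0.0382) and -1.42 (adjusted p = 0.0483). Msl1 and Hcfc1 passed the filter on low counts only through HSC libraries.

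Among 16 genes of ribosome biogenesis and Myc response, 3 were higher and none lower (18.8%, against 17.9% of all genes). They were the nucleolar genes Npm1 (800 and 870 CPM against 1759 and 1293, 1.24 ± 0.30), Ddx21 (1.71 ± 0.56) and Nolc1 (1.67 ± 0.50). None of these passed with library size alone. Ddx21 passed the filter on low counts only through plate2 libraries, so its direction was largely fixed.

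Cytosolic ribosomal protein genes split. Of 65 tested, 29 were higher (44.6%) and 7 lower (10.8%), against 17.9% and 13% of all genes. Log2 fold changes ran from -1.40 to 2.96, with a median of 0.48. With library size alone the counts were 17 higher and 15 lower and the median was 0.01, so the balance of directions depended on the scaling. Rps19 rose from 180 and 43.5 CPM to 759 and 634 CPM (2.96 ± 0.48, adjusted p = 0.000173), Rpl34 from 100 and 152 CPM to 704 and 634 CPM (2.76 ± 0.45), and Rps24 from 300 and 326 CPM to 1759 and 1146 CPM (2.58 ± 0.41). Rps20 fell from 5420 and 8152 CPM to 1815 and 2171 CPM (-1.40 ± 0.26, adjusted p = 0.000483). These 4 calls held in all 23 settings. The share of all transcripts in the list was 10.6% and 9.17% in HSC and 9.30% and 8.08% in plate2. Ribosomal protein genes have many processed pseudogene copies, so reads of single members may be split by the counting.

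Of 23 translation factors 5 were higher and 2 lower, or 21.7% and 8.70%, near the 17.9% and 13% of all genes. Eef1a1, which brings aminoacyl-tRNA to the ribosome, rose from 1440 and 457 CPM to 5111 and 4073 CPM (2.64 ± 0.39, adjusted p = 5.9e-05). Eef2, which moves the ribosome along, fell from 4020 and 4413 CPM to 1259 and 1049 CPM (-1.50 ± 0.26, adjusted p = 0.000272). The helicase gene Eif4a1 (2.50 ± 0.54) and the poly(A)-binding protein gene Pabpc1 (1.35 ± 0.29) were higher, and Eif4h was lower (-1.31 ± 0.43). Of these, Eif4a1 passed the filter on low counts only through plate2 libraries. The list's median changed sign with library size alone, from 0.24 to -0.23.

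**Figure D3:**
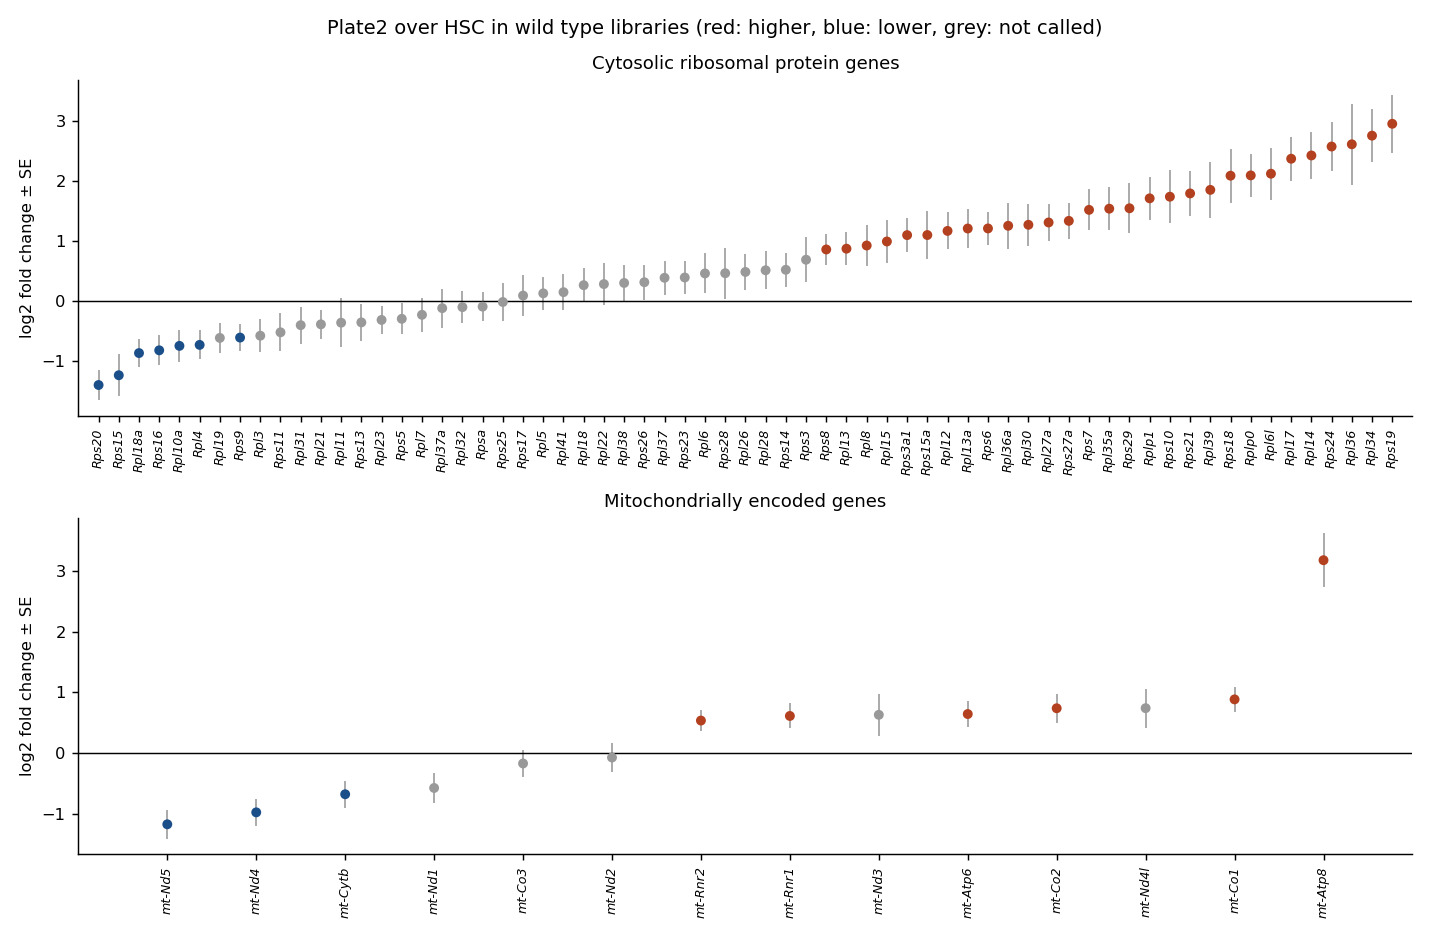
Log2 fold change of plate2 over HSC with its SE for each tested ribosomal protein gene (upper panel) and mitochondrially encoded gene (lower panel), ordered by value, red where called higher and blue where called lower. Both panels hold calls in both directions, from Rps20 at -1.40 to Rps19 at 2.96 and from mt-Nd5 at -1.18 to mt-Atp8 at 3.18.

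Genes of RNA-binding proteins of splicing had a share of higher calls near that of all genes. Of 38 tested, 9 were higher (23.7%) and 1 lower (2.63%), against 17.9% and 13% of all genes. Their median was 0.55 (0.08 with library size alone, where 6 were higher and 2 lower). Hnrnpa2b1 stood at 200 and 152 CPM in HSC and 667 and 829 CPM in plate2 (2.43 ± 0.41, adjusted p = 0.000226). Snrpf, a core protein of spliceosomal particles, had 2 transcripts in HSC and 28 in plate2, in 23 wells (4.01 ± 0.90, adjusted p = 0.00249). Both were called in every setting that tested them, but Snrpf passed the filter on low counts only through plate2 libraries. The lower gene was the RNA export helicase gene Ddx39b (-1.34 ± 0.43).

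Glycolysis genes that passed were lower. Of 8 tested, 2 were lower (25%, against 13% of all genes) and none higher. Pkm, pyruvate kinase M, on chromosome 9 (59656368 to 59679375), stood at 1140 and 1674 CPM in HSC and 222 and 195 CPM in plate2 (-2.37 ± 0.39, adjusted p = 0.000204), and Aldoa, aldolase A, at 620 and 761 CPM against 241 and 244 (-1.14 ± 0.39). The call of Pkm held in all 23 settings and that of Aldoa in 12. Of 25 nuclear genes of the respiratory chain 4 were lower (16%, near the 13% of all genes) and none higher, with a median of 0.05 that moved to -0.42 with library size alone. Cox7a2l, which joins respiratory complexes, went from 940 and 1326 CPM to 222 and 73.2 CPM (-2.49 ± 0.46, adjusted p = 0.000579). Cox8a (-1.42 ± 0.40), Uqcrq (-1.63 ± 0.55) and Ndufa12 (-1.30 ± 0.40) were the others. Of these, Ndufa12 passed the filter on low counts only through HSC libraries.

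Transcripts of the mitochondrial genome took 15.4% and 16.9% of transcripts in HSC and 14.2% and 15.5% in plate2, so the groups overlapped. Within them 6 of 14 tested genes were higher (42.9%) and 3 lower (21.4%), against 17.9% and 13% of all genes. mt-Atp8, an ATP synthase subunit, stood at 120 and 65.2 CPM in HSC and 704 and 634 CPM in plate2 (3.18 ± 0.44, adjusted p = 3.4e-05). mt-Nd5 (12600 and 18326 CPM against 5630 and 5000, -1.18 ± 0.24) and mt-Nd4 (-0.98 ± 0.22), of complex I, were lower, and so was mt-Cytb (-0.68 ± 0.22). mt-Atp8 passed the filter on low counts only through plate2 libraries. It overlaps mt-Atp6 on the genome, where the value was 0.64 ± 0.22. With library size alone 1 was higher and 5 were lower.

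Of 14 cytoskeleton genes 4 were higher (28.6%) and 1 lower (7.14%), against 17.9% and 13% of all genes. With library size alone 1 was higher and 4 were lower. Tmsb4x, the actin-binding thymosin beta 4, rose from 180 and 65.2 CPM to 667 and 634 CPM (2.73 ± 0.55, adjusted p = 0.00111), and the myosin light chain gene Myl6 fell from 2740 and 2565 CPM to 537 and 634 CPM (-1.82 ± 0.31, adjusted p = 0.00028). Both held in all 23 settings. Vim (1.60 ± 0.51), profilin 1 (Pfn1, 3.45 ± 1.26) and Actb (0.76 ± 0.25) were the others. Of these, Vim passed the filter on low counts only through plate2 libraries. Actb did not pass with library size alone, at 0.29.

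Stress and early response genes were mixed. Of 4 immediate early genes tested 2 were lower (50%, against 13% of all genes). They were the AP-1 gene Jund (300 and 848 CPM against 55.6 and 24.4, -3.34 ± 0.69) and the phosphatase gene Dusp2. Dusp2 had 11 thinned transcripts in HSC and 0 in plate2 and was at least 3.63-fold lower. Both genes passed the filter on low counts only through HSC libraries. Their direction was largely fixed by it, so the count is a description. Of 18 chaperone genes 3 were higher (16.7%) and 1 lower (5.56%), shares that do not exceed those of all genes. Hsp90b1, the endoplasmic reticulum chaperone, stood at 40 and 109 CPM in HSC against 296 and 317 (2.39 ± 0.54), and Hspa5 (1.33 ± 0.46) and Hspd1 (1.62 ± 0.60) were also higher, while the cochaperone gene Fkbp4 was lower (-1.88 ± 0.50). Hspd1 passed the filter on low counts only through plate2 libraries. The median of the chaperones changed sign with library size alone, from 0.32 to -0.15.

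**Figure D4:**
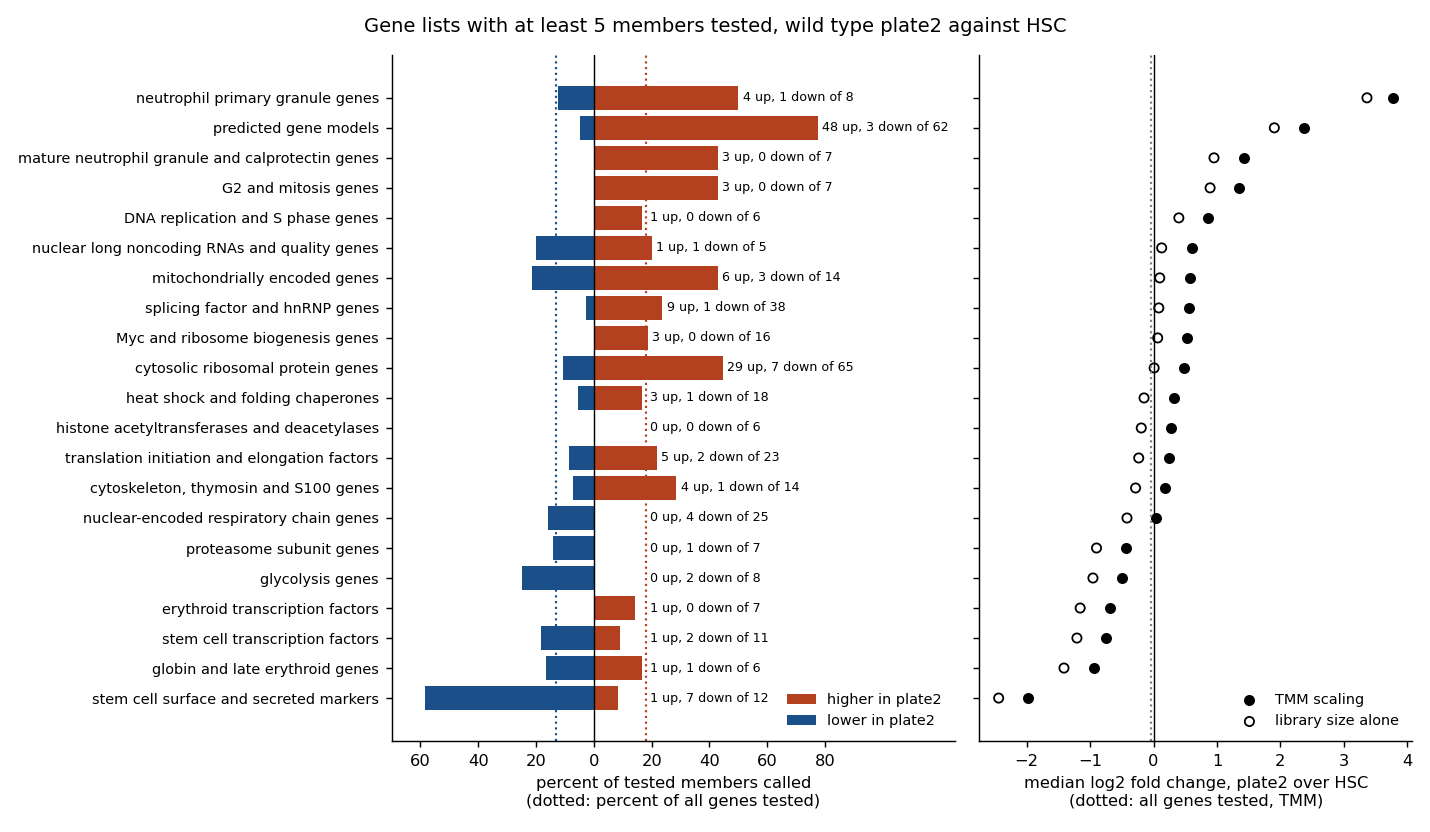
Left, percent of tested members of each list called higher (red, to the right) or lower (blue, to the left) in plate2, with dotted lines at the percent of all genes tested. Right, the median log2 fold change of each list with TMM scaling (filled) and with library size alone (open). Among these lists of at least 5 tested members, stem cell surface markers lie lowest at -1.98 and primary granule genes highest at 3.77 (1.80 with genes without counts in HSC at their bound, under the 2.37 of predicted gene models), and every open point lies to the left of its filled one.

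Outside the lists, the largest falls included genes with almost no plate2 transcripts. Ddrgk1, of the ufmylation pathway, had 23 transcripts in HSC and 0 in plate2 and was at least 7.59-fold lower. Klhl32, a kelch-like gene, stood at 560 and 152 CPM against 18.5 and 0 (-4.49 ± 1.0, adjusted p = 0.00221), a call lost without HSC library 1. Fis1, a mitochondrial fission gene, stood at 380 and 348 CPM against 18.5 and 24.4 (-3.63 ± 0.73), and Neurl3, a ubiquitin ligase gene, at 440 and 500 CPM against 0 and 73.2 (-3.43 ± 0.73). On the other side Bzw1, a translation regulator gene, had 0 transcripts in HSC and 16 in plate2 and was at least 5.39-fold higher. Mme, which encodes the peptidase CD10, stood at 0 and 65.2 CPM against 648 and 244 (4.13 ± 0.86, adjusted p = 0.00133). In the lower wild type group, each gene of this paragraph lay below the level that the filter on low counts asked for. The filter largely fixed the direction of such genes, so their calls are descriptions.

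Predicted gene models (names of Gm and a number) had the largest share of higher calls among lists with at least 5 members tested. Of 62 tested, 48 were higher (77.4%) and 3 lower, with a median of 2.37. They took 8.30% and 9.29% of transcripts in HSC and 24.2% and 24.4% in plate2. Where a model passed the filter on low counts only through plate2 libraries, its direction was largely fixed, so the count is a description. Gm26905, a lincRNA model on chromosome 8, went from 40 and 43.5 CPM to 1611 and 1073 CPM (5.30 ± 0.50, adjusted p = 1e-06), and Gm37158 from 240 and 413 CPM to 4222 and 3537 CPM (3.94 ± 0.42). Wells with at least 300 model transcripts of 1000 numbered 1 and 3 in HSC and 16 and 11 in plate2, and single wells reached 57.2% in HSC and 89.2% in plate2. With such wells left out 135 genes were higher and 116 lower. Reads of repeats can be shared between models, so single models are uncertain.

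Called genes also differed in base composition. The median GC content of transcripts was 47.4% for the 103 higher genes, 54% for the 114 lower ones and 49.3% for the 628 not called, over the 845 of 857 genes (98.6%) that GENCODE matched by name, gene models left out. Across these genes the log2 fold change had a Spearman rho of -0.32 with GC content, and -0.25 in the heterozygous libraries. Genes share libraries and are not independent replicates. Among 68 genes with names of ribosomal proteins or their copies rho was 0.11. The part of base composition in the differences was not tested.

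The same contrast was then taken in the Mof heterozygous libraries, which share no library with the wild type ones. Of the 294 genes called in wild type, 276 (93.9%) had the same sign in heterozygotes, against 81.1% of all tested genes, and 144 were called there too. The filter on low counts used the libraries of both genotypes together, so it largely fixed the direction of some genes in both. Wild type HSC wells were also estimated to hold a median of 7.14% and 6.87% of transcripts from heterozygous HSC libraries at the same barcodes. The agreement of signs is therefore a description. Heterozygotes had 127 genes higher (13.3%) and 95 lower (9.98%). Car1 stood at 4.07 and Mpo at 6.57 in heterozygotes, Ctla2a at -2.85, Hlf at -1.66 and Pkm at -2.39, each called in both genotypes. The difference between the contrasts was called for 0 of 952 genes by edgeR (0%), by DESeq2 and by limma-voom, with 70 at an unadjusted p under 0.05 by edgeR. Nearest were S100a9 (2.76 in wild type and -4.83 in heterozygotes, a difference of 7.59, adjusted p = 0.0535) and Tmsb4x (2.73 and -0.68, a difference of 3.41, adjusted p = 0.0535). Stem cell surface markers had medians of -1.98 and -2.12, and mature neutrophil genes 1.43 and -3.62.

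**Figure D5:**
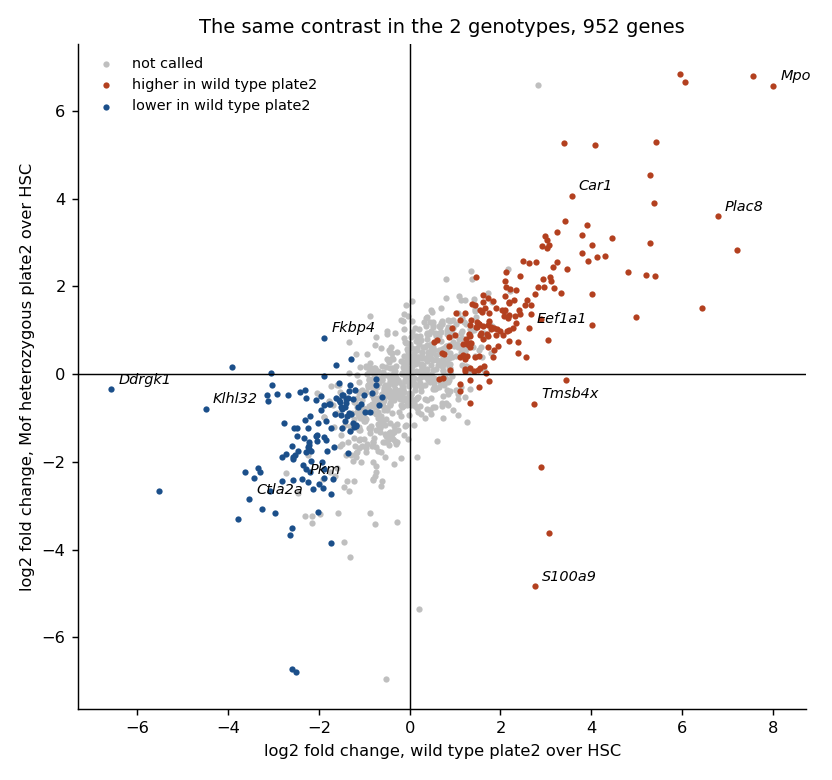
Log2 fold change of plate2 over HSC in wild type (horizontal) against Mof heterozygous libraries (vertical) for 952 genes, coloured by the wild type call. Most coloured points share their sign in both genotypes, and S100a9 and Tmsb4x lie to the right of 0 and below it.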

How the data were processed

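The deposited values are expected counts per gene and barcode, that is, estimated counts of transcripts corrected for identifier collisions and not scaled for depth. Every value matches a collision correction for a pool of 4096 identifiers applied to a whole number of them, as the values themselves show. BWA 0.6.2-r126 and mm10 are named per the submitters' processing notes, but no source used here gives their annotation, read filters or counter. Libraries are named as in their titles, but the deposited file names give the wild type plate2 numbers 13 and 14 the other way round, so which of these libraries is which is in doubt. Results for a few genes are not reported here.

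Own-half wells with at least 1000 transcripts over named genes (70 spike-in rows left out) were thinned to 1000 without replacement (seed 1) after rounding to whole numbers. No doublet caller was run, since single cells were sorted into wells. Sums per library were fitted with edgeR 4.0.16 (R 4.3.3; filterByExpr, TMM, one-way layout of the 4 groups over 8 libraries), tested first on simulated data. CPM carry no TMM factors. The SE is that of the fitted log2 fold change, which depends on a prior count for genes without counts, so those are given as bounds against 3 counts over the group. Coordinates came from GENCODE vM21. Kept barcodes shared between libraries numbered 23 (HSC 1 and plate2 14) and 25 (HSC 2 and plate2 13), and 0 for other wild type pairs.

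Members and gene lists were chosen with earlier results of these data known. Named genes were the 15 largest rises and 15 largest falls that passed, did not overlap between libraries and had at least 100 CPM in the higher group, and up to 4 called members per list and direction (2 by level where none passed), of which examples are given. Other named genes, such as further list members and markers, are given for their list. Lists without tested members were haem synthesis, B cell, T and NK cell, endothelial, Gimap, mitochondrial ribosomal protein and lipid synthesis genes. Alternatives were DESeq2 1.42.0, limma-voom (limma 3.58.1), RLE or library size alone, other depths, seeds, filters, well sets, whole identifiers and leaving out each library. Other tools were Python 3.11.15, numpy 2.4.6, pandas 2.3.3, scipy 1.17.1 and matplotlib 3.10.9.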

Additional observations from a re-analysis of the deposited data

Results flagged for a closer look

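Transcripts also appeared at the 96 barcodes of each library that are not its own and that no comparison used. They made up 13.6% and 13.1% of all transcripts of HSC libraries 1 and 2 and 4.11% and 5.37% of those of plate2 libraries 13 and 14. Across those 96 barcodes, the number of transcripts per well correlated with the summed own wells of the libraries of the same set at the same barcode, with Pearson's r of 0.69 and 0.72 in HSC and 0.97 and 0.98 in plate2. With the other set r lay between -0.11 and 0.15. These correlations are descriptions across wells that share a library. The share of a member well's transcripts estimated from such neighbours had a median of 7.14% and 6.87% in the HSC libraries and 0.713% and 0.217% in the plate2 libraries. For each wild type library, the neighbour was the Mof heterozygous library of the same set whose own wells have the same barcodes. Leaving out wells with an estimate of 20% or more, a setting chosen after seeing the data, gave 156 genes higher and 119 lower, of which 153 and 110 were among the 170 and 124.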

How the results depend on the processing

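Counts of higher and lower genes moved most with thinning, test and scaling. They were 628 and 531 without thinning, where many more genes were tested, 73 and 32 with DESeq2 and 106 and 241 with library size alone. Lower genes numbered 56 with limma-voom and 59 at 500 transcripts, and higher genes 113 without gene models in the table, a setting added after seeing the data. Leaving out each library gave 129 to 199 higher and 48 to 112 lower genes. With seeds 2, 3 and 4, 134 to 137 of the 170 higher and 70 to 76 of the 124 lower genes were called again. Of the named and called genes, 19 of 59 higher and 9 of 49 lower kept their call in every setting that tested them. Genes whose contrast differed between genotypes numbered 0, but 2 at 500 transcripts, 4 with library size alone, 5 without the low-count filter, 1 each with seeds 3 and 4, 4 without gene models and 3 to 14 without single libraries.

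The difference in genes per well turned to -0.75 without HSC library 1 and -4.5 without plate2 library 14 (range -4.5 to 6). Only 13 and 14 HSC wells reached 2000 transcripts, against 49 and 39 plate2 wells. At 2000 transcripts these values changed sign: Mecom 1.60, Ly6c2 -0.26, Mcm2 -0.73, Msl1 0.095, Mta2 0.13, and the medians of stem cell transcription factors 0.021 and S phase genes -0.32. At 500 transcripts these were Fkbp4 0.0036, stem cell transcription factors 0.026 and proteasome genes 0.066. Without a single library Sox4 ran from -1.34 to 0.13 and late erythroid genes from -1.83 to 0.22 (both highest without HSC 1), Ncor1 from -0.55 to 0.067 (highest without HSC 2), and erythroid factors reached 0.055 (without plate2 13). With library size alone they were chaperones -0.15, translation factors -0.23 and the median of histone acetyltransferases and deacetylases -0.19. Seeds 2, 3 and 4 gave that last list -0.33, -0.076 and -0.14, and seed 2 gave S phase genes -0.090. The carry-over screen gave late erythroid genes 0.20, and a fit of the 4 wild type libraries alone gave primary granule genes -0.54. The cause of these changes was not tested. No paired analysis was possible because the replicate numbers of the HSC (1 and 2) and plate2 libraries (13 and 14) are not shared. At 1000 transcripts a well, 952 genes could be tested, and sparse regulators such as Gata1 and Kat8 partners were at or under the limit of this depth.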
